A study of Mus musculus with 12 samples.

Results

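The genotype difference after 5 days in differentiation medium was read from 6 of the 12 RNA-seq libraries of the series. These were 3 libraries of wild-type C2C12 cells and 3 of C2C12 cells labelled as Mapk14 knockout (Mapk14-/-), chosen by their sample labels. C2C12 is an established line of mouse skeletal myoblasts. Cells of both genotypes were grown in DMEM with 10% fetal bovine serum (GM, growth medium), and those in these 6 libraries were then given DMEM with 2% horse serum (DM, differentiation medium) for 5 days. The other 6 libraries were of the same genotypes kept in GM for the same 5 days. The labels number the libraries of a group as biological replicates. The editing method, the number of knockout clones and what the replicates came from were not given in the sources used here, so p-values measure the spread between these libraries. Of 55416 genes in the table of counts, 13250 passed the filter on low counts and were tested.

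Mapk14 encodes p38 alpha, a stress-activated MAP kinase that is switched on by MKK3 and MKK6. In myoblasts p38 is known to phosphorylate MEF2 factors and the partners of MyoD, to promote withdrawal from the cell cycle, and to stimulate the fusion of myoblasts into myotubes. When serum is lowered, C2C12 cells express myogenin, then the contractile proteins, and a DM culture holds both myotubes and unfused cells.

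Each library of the comparison held between 8821669 and 10592466 counts, and 16259 to 16677 genes had at least 1 count. The first principal component of the 6 libraries held 74.0% of the variance and separated the genotype labels. Levels are given as CPM (edgeR's counts relative to library size, with TMM scaling of the sizes), in the order of replicates 1, 2 and 3 of a group (WT_DM and KO_DM where a library is left out), and differences as log2 fold changes of KO-labelled cells minus wild type ± SE (n = 3 libraries in each group). All 7 markers used to check the cell type (Myod1, Myf5, Myog, Des, Cdh15, Chrna1 and Acta1) were above 1 CPM in each of the 6 libraries. In GM, the replicate 3 libraries of both genotypes stood apart from the others of their groups, and they enter the estimate of spread because all 12 libraries were fitted together.

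Mapk14 (ENSMUSG00000053436), for which the knockout is labelled, was measured at 93.9, 91.2 and 88.7 CPM in wild type and 93.8, 90 and 84.5 CPM in the KO-labelled libraries. The groups overlapped, and the difference was -0.03 ± 0.08 (adjusted p = 0.822). The sign of this value turned positive when libraries were scaled by total counts alone (0.01), without KO_DM replicate 3 (0.02) and without WT_DM replicate 1 (0.01), and it was called in none of these. A count per gene does not show whether the transcripts can still be translated, so the label was not checked by this value and the libraries are called KO-labelled. The genes of the other p38 isoforms that were tested gave -0.11 ± 0.15 for Mapk11 (adjusted p = 0.641) and -0.25 ± 0.14 for Mapk12 (adjusted p = 0.199).

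Of the 13250 genes, 4114 were called at an adjusted p below 0.05, which is 31% of those tested. In KO-labelled cells 1802 were higher (13.6%) and 2312 lower (17.4%). At least 2-fold differences were called for 1095 genes (8.26%), of which 385 were higher (2.91%) and 710 lower (5.36%). The median over all genes tested was -0.02. These shares are the background against which the counts of gene lists below are given. The 6 libraries did not overlap, with KO-labelled cells above, for 21.3% of genes, and with KO-labelled cells below for 26.2%.

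**Figure D1:**
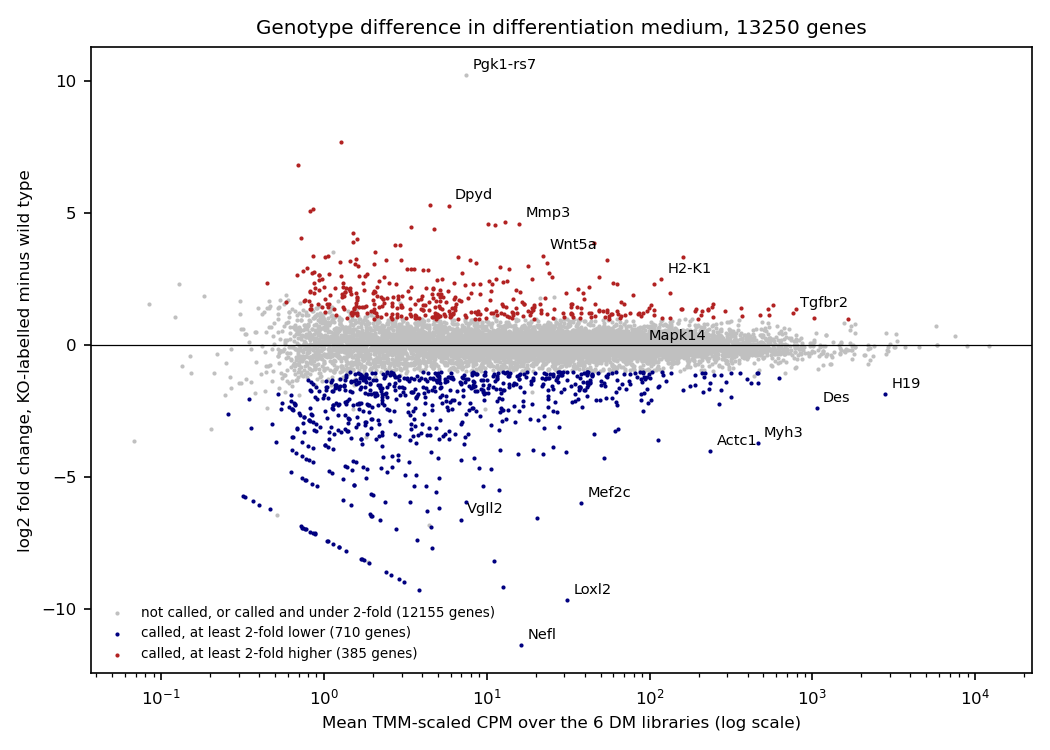
Difference between KO-labelled and wild-type cells in DM against mean level, 1 point per gene (13250 genes), with the called genes of at least 2-fold in colour. The 710 lower genes reach further from 0 than the 385 higher ones; the slanting line of points at the lower left is made of genes with 0 counts in the KO-labelled libraries, whose fitted value is no bound, and Pgk1-rs7, the top point, was not called.

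The sequences shown here are the stretches just upstream of the RefSeq start sites of 6 genes (build GRCm38.p6), printed on the strand of the gene from 5′ to 3′ and ending 1 base before the start. They were chosen because their windows hold motifs that myogenic factors and AP-1 are known to bind, beside genes whose levels differed between the genotypes. Capitals mark CAGCTG, an E-box that MyoD and myogenin can bind, in Des (chr1:75360232-75360291, plus strand), Musk (chr4:58285872-58285961, plus strand) and Chrna1 (chr2:73580339-73580438, minus strand). In Myoz2 (chr3:123034988-123035047, minus strand) they mark an AT-rich MEF2 consensus and then CAGCTG, and in Myh8 (chr11:67277004-67277123, plus strand) a MEF2 consensus. In Mmp3 (chr9:7445742-7445821, plus strand) they mark TGANTCA, the motif of AP-1.
Des: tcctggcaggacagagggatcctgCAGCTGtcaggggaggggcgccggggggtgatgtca
Musk: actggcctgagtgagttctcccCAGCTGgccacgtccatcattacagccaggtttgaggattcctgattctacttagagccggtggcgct
Chrna1: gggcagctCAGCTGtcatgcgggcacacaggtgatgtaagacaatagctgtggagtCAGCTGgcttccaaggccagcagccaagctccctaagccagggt
Myoz2: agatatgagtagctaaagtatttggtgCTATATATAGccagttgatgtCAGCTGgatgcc
Myh8: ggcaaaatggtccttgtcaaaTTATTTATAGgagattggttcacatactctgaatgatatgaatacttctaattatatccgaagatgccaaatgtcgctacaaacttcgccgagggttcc
Mmp3: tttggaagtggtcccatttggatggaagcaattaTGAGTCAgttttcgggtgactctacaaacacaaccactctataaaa

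Across the 250 bases upstream of each start, CAGCTG was present in 13% of all 32851 RefSeq windows and in 12.4% of the 12648 windows of genes tested. It was present in 21.3% of the 687 windows of genes that fell at least 2-fold and in 12.2% of the 327 windows of genes that rose at least 2-fold. The 687 windows belonged to 498 of 710 such genes and the 327 to 263 of 385. Some genes thus had several windows and others none. The muscle lists below share genes with those that fell. Among the muscle lists it was in 7 of 21 windows of the thick filament list, 7 of 17 of the thin filament list, 9 of 37 of the Z-disc list, 8 of 21 of the excitation-contraction coupling list and 3 of 10 of the neuromuscular junction list. The MEF2 consensus was in 1.69% of windows of genes tested, and in 4.80% and 1.83% of those of genes that fell and rose at least 2-fold. By list it was in 5 of 21 thick filament, 1 of 17 thin filament, 7 of 37 Z-disc, 3 of 21 excitation-contraction coupling and 0 of 10 neuromuscular junction windows. TGANTCA was in 4.66% of windows of genes tested, and in 9.79% and 9.90% of those of genes that rose and fell at least 2-fold. It was in 6 of 22 windows of the chemokine and cytokine list and 0 of 18 of the MHC class I list. CAGCTG was in 4 of 22 and 2 of 18 windows of these lists, and the MEF2 consensus in 1 of 22 and 0 of 18. All these motifs read the same on both strands as patterns, CAGCTG is one form of the wider E-box CANNTG (66.2% of all windows), and a match is a description of letters rather than a bound site.

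The p38 list of kinases, activators and effectors held 29 tested genes, of which 1 rose and 5 fell (median -0.05). Mknk2, a kinase downstream of p38 and ERK that phosphorylates eIF4E, was at 176, 179 and 162 CPM in wild type and 101, 103 and 90.7 CPM in the KO-labelled libraries, and fell by 0.81 ± 0.08 (adjusted p = 4.26e-08). Hspb1, the small heat shock protein phosphorylated through p38 and MK2, fell from 261 to 118 CPM (-1.14 ± 0.16). Gadd45g, which can activate the upstream kinase MTK1, was the 1 member that rose (0.37 ± 0.08). The falls were 2 without KO_DM replicate 1 and 3 without WT_DM replicate 2 or with total counts alone as the scaling, the rises were 2 or 3 without KO_DM replicate 1, WT_DM replicate 1 or WT_DM replicate 3 and 4 with the 6 DM libraries alone, and the median was -0.13 to -0.04 over the fits without 1 library, lowest without KO_DM replicate 2. The calls of these 3 genes held throughout.

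Phosphatases that switch MAP kinases off were mostly lower: of 12 tested, 9 fell and 1 rose (median -0.53). Dusp10, a phosphatase with a preference for p38 and JNK, was at 56, 53 and 48.4 CPM in wild type and 22.9, 20.8 and 22 CPM in the KO-labelled libraries. The KO-labelled libraries were all under the lowest wild-type library, and the change was -1.26 ± 0.10 (adjusted p = 3.88e-09). Dusp6, an ERK phosphatase, fell from 35.1 to 18.3 CPM, Dusp4 from 31.4 to 16.9 CPM and Dusp9 from 6.39 to 2.05 CPM. Ppm1d, which dephosphorylates p38 and p53, was the 1 that rose (0.62 ± 0.12). Without KO_DM replicate 3 or without WT_DM replicate 2, 5 members fell rather than 9; the calls named here were kept.

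Genes induced by ERK signalling also had more falls than rises, with 10 of 17 lower and 1 higher (median -0.59). Some of these members, Dusp4 and Dusp6 among them, belong to the phosphatase list too, so the lists are not independent. Etv1, an ETS factor, was at 4.61, 5.93 and 4.59 CPM in wild type and 0.101, 0.374 and 0.0929 CPM in the KO-labelled libraries, a change of -4.63 ± 0.44. Etv1 had 6 counts over the KO-labelled libraries, with replicates 1 and 3 under the floor of 3 counts. Its relative Etv4 fell from 27.4 to 10.9 CPM and Phlda1 from 80 to 38 CPM. The early-response list gave 6 lower and 1 higher of 15, the higher one being lost without KO_DM replicate 1, WT_DM replicate 1 or WT_DM replicate 3. Egr3, a zinc-finger factor that responds quickly to growth factors and calcium, was at 25, 28 and 28.5 CPM in wild type and 7.3, 5.51 and 6.04 CPM in the KO-labelled libraries, and its change of -2.12 ± 0.15 was near that of Egr2 (-2.13 ± 0.20). Klf2 fell from 21.1 to 3.85 CPM and Klf4 from 38 to 16.2 CPM, while Egr1 fell by a smaller 0.74 ± 0.09. Of 12 AP-1 genes 3 rose and 1 fell (2 without KO_DM replicate 1): Fosl2 rose by 0.58 ± 0.11 and Junb by 0.37 ± 0.08, and Jund fell by 0.42 ± 0.08.

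Of 22 myogenic transcription factors and partners 12 fell and 2 rose (median -0.34). Mef2c, the MEF2 factor most tied to sarcomeric genes, was at 68.1, 84.3 and 73 CPM in wild type and 1.11, 0.654 and 1.76 CPM in the KO-labelled libraries. The groups were far apart, and the change was -5.98 ± 0.41 (adjusted p = 1.26e-05). Vgll2, a TEAD cofactor of skeletal muscle, was at 12, 15.6 and 13.5 CPM in wild type and 0.203, 0.0934 and 0.0929 CPM in KO-labelled libraries (-6.61 ± 0.36), the latter under the floor of 3 counts in each library. Myf5, which marks committed myoblasts, was at 25.5, 28.3 and 26.2 CPM in wild type and 4.86, 4.39 and 4.83 CPM in the KO-labelled libraries and fell by 2.50 ± 0.17.

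Other members also fell. Smyd1, a muscle methyltransferase needed for sarcomere assembly, fell from 56.7 to 18.5 CPM (-1.61 ± 0.13), and Tead4, a TEAD factor active in myoblasts, from 33.5 to 15.6 CPM (-1.11 ± 0.13). Rbfox1, a splicing factor of mature muscle, fell from 1.57 to 0.166 CPM, with only 5 counts over the KO-labelled libraries. Myod1 was at 150.1, 169 and 146 CPM in wild type and 132, 126 and 111 CPM in the KO-labelled libraries, with no overlap and a change of -0.33 ± 0.09 (adjusted p = 0.00548), but the call was lost without KO_DM replicate 3 (0.0571) and without WT_DM replicate 2 (0.0593). Myog, the gene of myogenin, was at 658, 592 and 595 CPM in wild type and 316, 294 and 287 CPM in the KO-labelled libraries. Its change of -1.04 ± 0.31 passed narrowly (adjusted p = 0.0325). The call was lost when any 1 of the 6 libraries was left out (0.0744 to 0.0991) and without a filter on low counts (0.0559). In a fit of the 6 DM libraries alone its adjusted p was 1.67e-14.

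The list of inhibitors of differentiation and of progenitor markers had 5 higher and 6 lower of 24 (median 0.02). Among the inhibitors, Msc, the bHLH repressor musculin, was at 3.8, 3.88 and 5.39 CPM in wild type and 0.101, 0 and 0 CPM in KO-labelled libraries. Id3 rose from 106 to 156 CPM (0.56 ± 0.08) while Id2 fell from 25.1 to 15.2 CPM, and Id1 was not called (0.05 ± 0.14, adjusted p = 0.839). Of progenitor surface genes, Cd34 rose from 80.6 to 131 CPM and Megf10, a receptor of satellite cells, fell from 130.4 to 49.8 CPM.

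Contractile genes were lower as a group. In the thick filament and M-band list 18 of 21 fell and none rose (median -2.14), in the thin filament list 15 of 19 fell and none rose (median -1.39), and in the list of Z-disc, titin and assembly genes 28 of 37 fell and none rose (median -0.93). The KO-labelled libraries lay below every wild-type library for all 21 thick filament genes, 18 of 19 thin filament genes and 33 of 37 Z-disc genes, against 26.2% of all genes. None of the members of these 3 lists was higher at an unadjusted p below 0.05 either, nor called higher by DESeq2 or limma-voom. In these bulk libraries, fewer myotubes in a culture and less RNA of these genes per myotube cannot be told apart.

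Myosin heavy chains drive contraction, and each isoform marks a stage or fibre type. Myh3, the embryonic isoform, was at 891, 854 and 825 CPM in wild type and 71, 59.9 and 63.5 CPM in the KO-labelled libraries, a change of -3.72 ± 0.36 (adjusted p = 8.39e-05). Myh7, the slow isoform, was at 112, 104 and 84.8 CPM in wild type and 6.28, 4.39 and 4.83 CPM in the KO-labelled libraries, a change of -4.28 ± 0.34. Myh8, the perinatal isoform whose upstream MEF2 match is shown above, was at 18.5, 24.2 and 18.4 CPM in wild type and 1.22, 0.467 and 0.65 CPM in the KO-labelled libraries, a change of -4.71 ± 0.30. In all 3 genes the highest KO-labelled library was many times under the lowest wild-type library. Myh4 fell from 8.53 to 0.508 CPM, Myh6 from 5.42 to 0.29 CPM and Myh2 from 16.1 to 7.14 CPM; reads shared among these closely related genes depend on how the authors assigned them. Myh1 was at 595, 610.1 and 612 CPM in wild type and 265, 272 and 265 CPM in the KO-labelled libraries and was not called (-1.18 ± 0.41, adjusted p = 0.0591), although its groups did not overlap; with the 6 DM libraries alone its adjusted p was 1.69e-16, and limma-voom gave 0.00792.

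On the thin filament, Actc1, the cardiac actin expressed in young myotubes, was at 452, 452 and 431 CPM in wild type and 32.8, 24.4 and 25 CPM in the KO-labelled libraries. This was a change of -4.02 ± 0.33 (adjusted p = 2.77e-05). Acta1, the adult skeletal actin, was at 2694, 2753 and 2692 CPM in wild type and 1976, 1771 and 1707 CPM in the KO-labelled libraries. Its groups did not overlap. Its difference of -0.58 ± 0.38 was not called in the fit of all libraries (adjusted p = 0.308). It was called without both GM replicate 3 libraries (0.0433) and with the 6 DM libraries alone (3.14e-09, with an SE of 0.06). Tnnc2, the calcium sensor of fast fibres, fell from 154 to 27.5 CPM (-2.48 ± 0.23), Tnnt1 from 144 to 40.5 CPM, Tnni2 from 146 to 46.2 CPM, and Neb, the nebulin ruler, from 165 to 38.6 CPM (-2.09 ± 0.27).

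In the Z-disc list, Actn2, the alpha-actinin that cross-links thin filaments, was at 20, 25.1 and 22.5 CPM in wild type and 2.03, 1.03 and 1.3 CPM in the KO-labelled libraries and changed by -3.96 ± 0.25 (adjusted p = 6.50e-11). Des, the muscle intermediate filament with the E-box shown above, was at 1759, 1797 and 1814 CPM in wild type and 377, 329.5 and 322 CPM in the KO-labelled libraries. Its groups were tight and far apart (-2.39 ± 0.10, adjusted p = 3.00e-13). Myoz2, a calcineurin-binding Z-disc protein, fell from 43.6 to 7.64 CPM, Ankrd2, a stretch-responsive titin partner, from 46 to 7.93 CPM, and Hspb7, a small heat shock protein of the sarcomere, from 27.6 to 5.64 CPM.

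**Figure D2:**
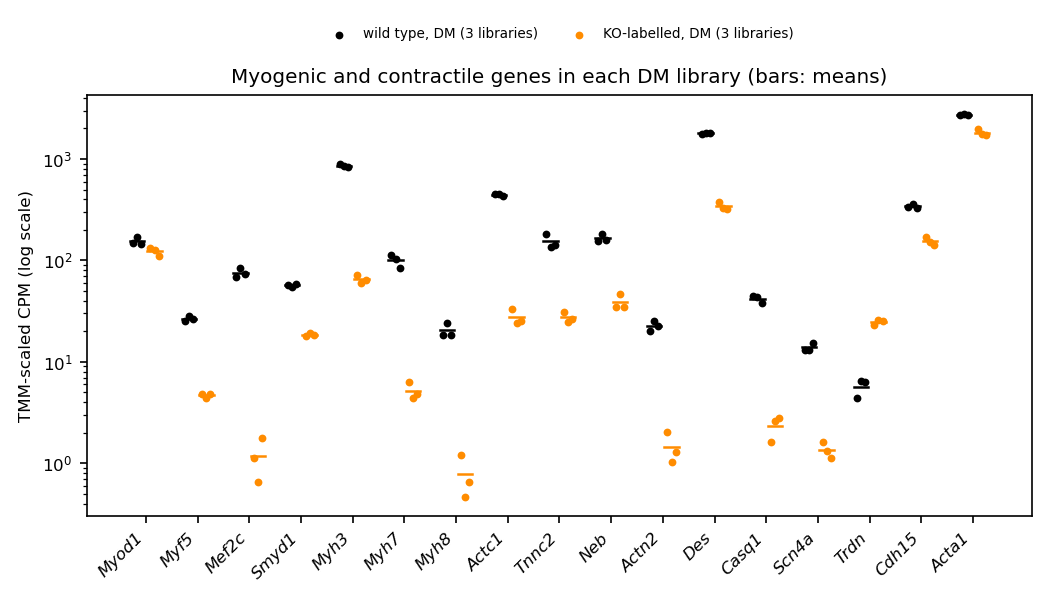
Level of 17 myogenic and contractile genes in each of the 6 DM libraries, in TMM-scaled CPM on a log axis, with the mean of each group as a bar. KO-labelled libraries lie below wild type for all genes shown but Trdn; the gap is widest for Mef2c and Myh8 and narrowest for Myod1 and Acta1, the latter not called in the fit of all libraries.

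Genes of excitation-contraction coupling followed the same direction, with 18 of 28 lower and 2 higher (median -0.68). Casq1, the calcium buffer of fast sarcoplasmic reticulum, was at 44.4, 43.3 and 37.9 CPM in wild type and 1.62, 2.61 and 2.79 CPM in the KO-labelled libraries, a change of -4.14 ± 0.24. Scn4a, the sodium channel of adult muscle, was at 13.1, 13.2 and 15.5 CPM in wild type and 1.62, 1.31 and 1.11 CPM in the KO-labelled libraries, a change of -3.36 ± 0.28. Both genes were well separated between the groups. Atp2a1, the SERCA1 calcium pump, fell from 245 to 75.4 CPM, Hrc from 65.1 to 17.3 CPM and Dysf, a membrane-repair protein, from 79.5 to 27 CPM. Trdn, which encodes triadin of the calcium-release complex, went the other way at 4.38, 6.44 and 6.29 CPM in wild type and 23, 25.8 and 25.1 CPM in the KO-labelled libraries and rose by 2.10 ± 0.21 (adjusted p = 7.90e-08).

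At the neuromuscular junction 7 of 13 genes fell and 2 rose (median -0.45); neither rise held without KO_DM replicate 2, KO_DM replicate 3 or WT_DM replicate 2, and 1 was lost without WT_DM replicate 1 or 3. Musk, the receptor kinase that gathers acetylcholine receptors, was at 40.2, 42.7 and 37 CPM in wild type and 20.1, 18 and 16.4 CPM in the KO-labelled libraries and fell by 1.14 ± 0.16. The receptor subunit Chrnd fell from 128 to 68.4 CPM and Chrna1 from 841 to 533 CPM (-0.66 ± 0.08), and Dok7, the activator of MuSK, from 45.6 to 28.5 CPM.

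The list for fusion and adhesion was mixed, with 5 higher and 7 lower of 22 (median -0.10). Mymx, the fusion protein myomixer, was at 33.1, 39.2 and 33.4 CPM in wild type and 17.2, 14.2 and 15.1 CPM in the KO-labelled libraries, a change of -1.18 ± 0.17 (adjusted p = 2.25e-05). Mymk, its partner myomaker, was at 379.9, 392 and 365 CPM in wild type and 241, 236 and 209.7 CPM in the KO-labelled libraries. Its groups did not overlap, but it was not called (-0.73 ± 0.29, adjusted p = 0.0965), whereas the 6 DM libraries alone gave 1.37e-10. Tmem182, a membrane protein of muscle, fell from 93.7 to 23.1 CPM (-2.02 ± 0.15), and Cdh15, the M-cadherin of myoblasts, from 341 to 154 CPM (-1.14 ± 0.08). Elmo1, which with DOCK proteins activates Rac during fusion, rose from 23.3 to 69 CPM (1.56 ± 0.22).

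Of 21 genes of muscle energy metabolism 14 fell and 2 rose (median -0.92), 1 of the rises being lost without KO_DM replicate 1, KO_DM replicate 2, WT_DM replicate 2 or WT_DM replicate 3. Ckm, the creatine kinase of muscle, was at 30.8, 32.5 and 30.3 CPM in wild type and 7.3, 6.54 and 6.13 CPM in the KO-labelled libraries, a change of -2.23 ± 0.19. Pygm, which breaks down glycogen, fell from 54.9 to 15 CPM, Ldhb from 13.1 to 2.82 CPM and Cox8b, a muscle subunit of cytochrome oxidase, from 2.62 to 0.55 CPM. In the dystrophin-glycoprotein complex 6 of 14 fell and none rose in the fit of all libraries (1 rose without KO_DM replicate 1 or without WT_DM replicate 2; none at an unadjusted p below 0.05, by DESeq2 or by limma-voom). Sntb1, a syntrophin, fell from 54.5 to 12.3 CPM (-2.15 ± 0.23) and Lama2, the laminin chain bound by the complex, from 44.4 to 24.1 CPM.

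Of 16 integrin subunits 8 fell and 2 rose (median -0.62). Itgb8 was at 6.45, 6.74 and 9.08 CPM in wild type and 0, 0.0934 and 0 CPM in KO-labelled libraries, and Itga4, a receptor for VCAM1 and fibronectin, at 8.41, 9.91 and 7.18 and 0, 0 and 0.279 CPM. Both were at or under the floor in every KO-labelled library. Itga7, the laminin receptor of muscle, fell from 1017 to 568 CPM (-0.84 ± 0.08) and Itga5 from 397 to 247 CPM. The rises were 1 or none in 5 of the 6 fits without 1 library, all but that without WT_DM replicate 3. Intermediate filament genes gave 8 lower and 1 higher of 12: beside Des, Nes (nestin) fell from 1614 to 971 CPM, and Synm (synemin, a partner of desmin) rose from 2.25 to 8.13 CPM.

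**Figure D3:**
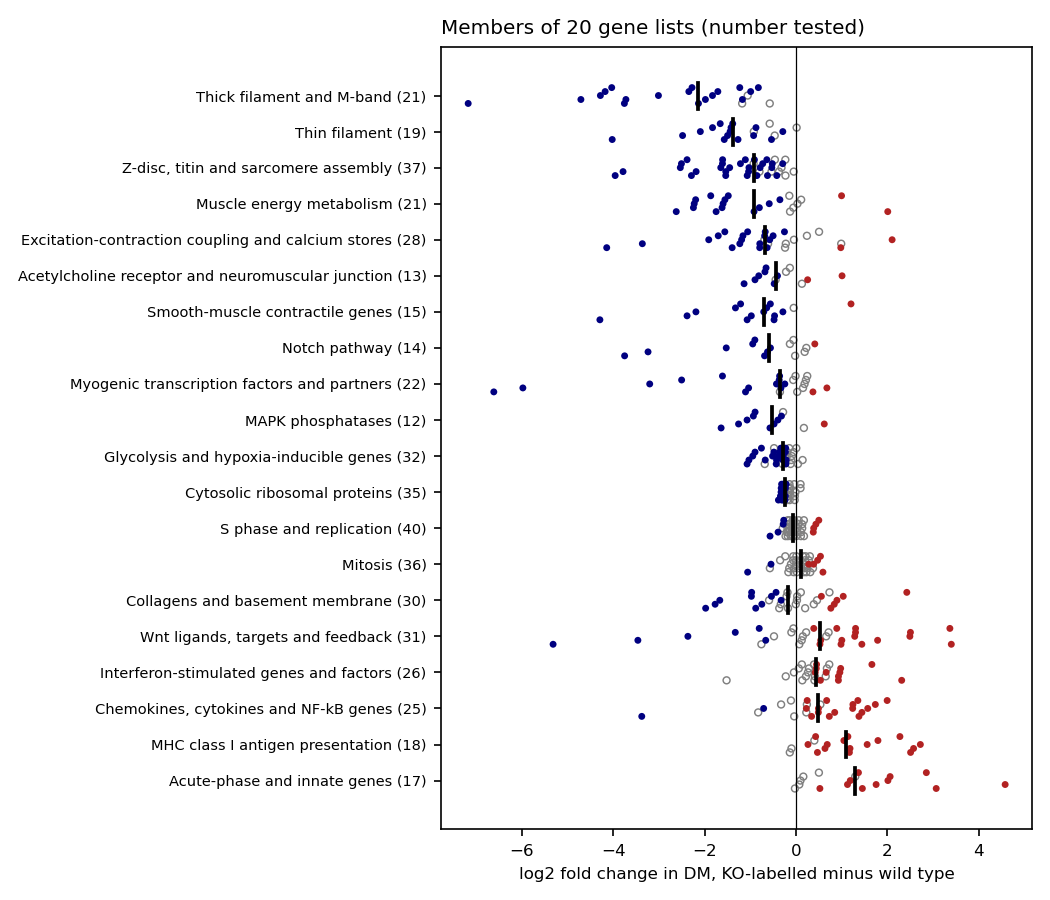
Difference in DM of each tested member of 20 gene lists; filled points were called (blue lower, red higher), open points were not, and the black bar is the median of the list. The medians run from -2.14 for the thick filament to 1.29 for acute-phase genes, beside -0.02 over all 13250 genes; the points of a list are spread vertically only to separate them.

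Cell cycle genes differed little in DM. Of 40 genes of S phase and replication 4 rose and 4 fell (median -0.07), and the falls were 2 without KO_DM replicate 3, WT_DM replicate 1 or WT_DM replicate 2. Mcm5, a subunit of the replicative helicase, rose from 149 to 202 CPM (0.43 ± 0.09), and E2f2, an E2F activator, fell from 51 to 34.4 CPM (-0.57 ± 0.10). Of 36 mitotic genes 5 rose and 2 fell (median 0.10); the rises were 2 or 3 without any 1 of 5 libraries (all but WT_DM replicate 3) and 10 with the 6 DM libraries alone, the median was 0.03 without WT_DM replicate 1 and 0.23 without WT_DM replicate 3, and the falls were 1 without KO_DM replicate 1, KO_DM replicate 2, WT_DM replicate 2 or WT_DM replicate 3. Foxm1, the activator of mitotic genes, rose from 38.6 to 56 CPM and Cdc25b fell from 55.4 to 26.6 CPM. Mki67, the proliferation marker, was at 77.8, 87.2 and 98.2 CPM in wild type and 92.5, 104 and 104 CPM in the KO-labelled libraries, and was not called (0.19 ± 0.21, adjusted p = 0.556; 0.0306 with the 6 DM libraries alone).

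Regulators of cell cycle exit gave 3 higher and 5 lower of 18. Ccnd3, the D cyclin of differentiating muscle, was at 304, 281 and 265 CPM in wild type and 149, 143 and 122 CPM in the KO-labelled libraries and fell by 1.04 ± 0.08 (adjusted p = 1.50e-09). Rbl2, the pocket protein p130, rose from 102 to 199 CPM (0.96 ± 0.08), and Cdkn1a, the p21 inhibitor, fell from 762 to 605 CPM (-0.33 ± 0.07). Ccnd1 was not called (-0.02 ± 0.11, adjusted p = 0.932). The falls were 3 without KO_DM replicate 1, KO_DM replicate 3 or WT_DM replicate 3, and the rises 1 without WT_DM replicate 2 or 3. Of 28 p53 targets and apoptosis genes 2 rose and 5 fell, 3 without WT_DM replicate 2. Pmaip1, which encodes the pro-apoptotic protein Noxa, was at 30.2, 29.6 and 28.4 CPM in wild type and 2.74, 1.21 and 1.11 CPM in the KO-labelled libraries, a change of -4.13 ± 0.25, and Fas, a death receptor, rose from 10.4 to 25.7 CPM.

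Smooth-muscle contractile genes, many of them targets of SRF, were lower for 13 of 15 and higher for 1 (median -0.71). Des, given above with the Z-disc list, is among the 13, so these lists are not independent. Acta2, alpha smooth-muscle actin, was at 2584, 2846 and 2763 CPM in wild type and 1757, 1604 and 1655 CPM in the KO-labelled libraries and fell by 0.71 ± 0.07. Actg2 was at 143, 174 and 163 CPM in wild type and 35.7, 35 and 34.4 CPM in the KO-labelled libraries, a larger change of -2.19 ± 0.10. Cnn1, calponin, fell from 9.58 to 0.474 CPM and Myl9 from 116 to 50.2 CPM, and Mylk, the myosin light chain kinase, was the 1 that rose (from 9.25 to 21.3 CPM). In the list of YAP and TEAD cofactors and targets 6 rose and 10 fell of 20. Vgll2 and Tead4, which fell, are also in the myogenic list above. The target Ccn2 fell from 139 to 38.9 CPM (-1.84 ± 0.10) and Tead2 from 39 to 12.4 CPM, while Crim1 rose from 71.8 to 112 CPM.

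Of 14 Notch genes 8 fell and 1 rose (median -0.59), the rise being lost without KO_DM replicate 1, KO_DM replicate 3, WT_DM replicate 1 or WT_DM replicate 2. Among the target genes, Heyl was at 11.3, 15 and 14.1 CPM in wild type and 1.01, 0.747 and 1.21 CPM in the KO-labelled libraries, a change of -3.75 ± 0.29, and Hey1 fell from 10.7 to 1.12 CPM (-3.24 ± 0.25) and Hes1 from 31.6 to 16.4 CPM. The receptor Notch3 fell from 119.8 to 74.3 CPM and the ligand Jag2 from 48.1 to 25.8 CPM.

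The Wnt list had more rises than falls, with 15 higher, 6 lower and 10 not called of 31 (median 0.52). Wnt5a, a ligand best known for non-canonical signalling, was at 4.38, 3.88 and 3.29 CPM in wild type and 40.1, 40 and 41.3 CPM in the KO-labelled libraries. The KO-labelled libraries were about equal to each other and far above wild type (3.40 ± 0.14, adjusted p = 5.45e-14). Among ligands, Wnt7b fell, with 1.73, 4.6 and 2.69 CPM in wild type and 0.101, 0.0934 and 0 CPM in KO-labelled libraries. The R-spondin Rspo2, which raises Wnt signalling, rose from 3.41 to 19.4 CPM and its receptor Lgr5 from 5.7 to 32.4 CPM (2.50 ± 0.32), whereas the related receptor Lgr6 fell from 4.0 to 0.363 CPM (-3.46 ± 0.49).

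The TGF-beta superfamily gave 10 higher and 9 lower of 30. Tgfbr2, the type II receptor, was at 442, 462 and 478 CPM in wild type and 1043, 1091 and 1080.3 CPM in the KO-labelled libraries and rose by 1.22 ± 0.07 (adjusted p = 1.88e-11). Of the antagonists of BMPs, Nog rose from 3.27 to 10.6 CPM, while Chrdl1 fell from 115 to 12.6 CPM (-3.19 ± 0.39). Gdf6, a ligand of the family, was among the largest rises (from 10.5 to 99.4 CPM). Of 16 IGF pathway genes 4 were higher and 5 lower: Igfbp3 was at 20.9, 18.7 and 24.2 CPM in wild type and 101, 103 and 111 CPM in the KO-labelled libraries (2.30 ± 0.10), Igfbp4 fell from 79.9 to 19 CPM, Igf2, a growth factor of differentiating myoblasts, fell from 138 to 69 CPM, and Igf1 was not called (0.52 ± 0.29, adjusted p = 0.225). Receptor kinases and their ligands split 8 higher and 9 lower of 32. Erbb3, a receptor for neuregulins, fell from 64.1 to 12.5 CPM (-2.36 ± 0.15), Pdgfb from 7.76 to 1.43 CPM, and Fgf10 rose from 31.1 to 77.8 CPM.

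Imprinted genes, expressed from 1 parental copy, were lower for 9 of 16 and higher for 1 (median -0.84). H19, a noncoding RNA that rises as myoblasts differentiate, was at 4587, 4341 and 4252 CPM in wild type and 1222, 1130.0 and 1259 CPM in the KO-labelled libraries, the largest fall in CPM of any called gene (-1.87 ± 0.37, adjusted p = 0.00492). Peg10 was at 52.2, 57.6 and 64.8 CPM in wild type and 2.33, 3.74 and 4.46 CPM in the KO-labelled libraries, a change of -4.04 ± 0.18. Ndn (necdin) had 101 counts over the wild-type libraries and 0 over the KO-labelled ones, at least 36.8-fold lower against a floor of 3 counts over the group.

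Of 30 collagen and basement membrane genes 6 rose and 10 fell. Col4a1 of basement membrane was at 293, 324 and 368 CPM in wild type and 94.8, 98.1 and 95.5 CPM in the KO-labelled libraries, a change of -1.77 ± 0.18, and Col4a2, its partner chain, fell from 352 to 111 CPM. Col6a2 rose from 674 to 1379 CPM and Col11a1 from 4.16 to 22.4 CPM, while Col1a1 was not called (-0.37 ± 0.25, adjusted p = 0.308). Among matricellular proteins and proteoglycans 10 rose and 8 fell of 26 (5 fell without KO_DM replicate 1 or WT_DM replicate 3). Postn (periostin) fell from 438 to 92.6 CPM and Dcn (decorin) from 36.4 to 5.14 CPM, while Bgn (biglycan) rose from 2812 to 3744 CPM and Ccn5 from 53.4 to 213 CPM.

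In the list of lysyl oxidases and metalloproteases 6 rose and 5 fell of 25. Loxl2, a lysyl oxidase that cross-links collagen, was at 50.2, 66.8 and 70.4 CPM in wild type and 0.101, 0 and 0.0929 CPM in KO-labelled libraries (adjusted p = 4.94e-15). Over the 3 libraries of each group this was 1796 and 2 counts, a level 988-fold lower with a 95% counting interval of 273 to 8164. Mmp3, stromelysin 1, with the AP-1 motif shown above, was at 2.19, 0.613 and 0.998 CPM in wild type and 33.6, 31.2 and 26.2 CPM in the KO-labelled libraries and rose by 4.61 ± 0.28 (adjusted p = 8.51e-11). Mmp2, gelatinase A, rose from 1324 to 2322 CPM and its inhibitor Timp2 from 1301 to 2148 CPM.

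Inflammatory genes were higher as a group. Of 25 chemokine, cytokine and NF-kB genes 16 rose and 2 fell (median 0.49, or 0.76 without WT_DM replicate 3 and 0.27 without a filter on low counts), of 17 acute-phase and innate genes 11 rose and none fell (median 1.29), and of 26 interferon-stimulated genes and factors 11 rose and none fell (median 0.43). Cxcl5, a neutrophil chemokine, was at 470.5, 432 and 433 CPM in wild type and 1139.9, 1178 and 1091 CPM in the KO-labelled libraries, a change of 1.35 ± 0.10. Il33, an alarmin, was at 123, 126 and 124 CPM in wild type and 375, 392 and 338 CPM in the KO-labelled libraries, a change of 1.57 ± 0.11. For both genes every KO-labelled library was far above every wild-type library.

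At an unadjusted p below 0.05 edgeR had 1 interferon gene and 0 acute-phase genes lower, and DESeq2 and limma-voom called 0 lower in both lists; with the 6 DM libraries alone 1 interferon gene was called lower. Other chemokines differed too. Cxcl1 rose from 87.4 to 227 CPM, Ccl2, which draws monocytes, from 19.4 to 52.5 CPM, and Cxcl16 from 3.2 to 12.8 CPM, whereas Cxcl14 fell from 83.4 to 8.04 CPM (-3.38 ± 0.46). Il6 was at 3.57, 2.45 and 2.69 CPM in wild type and 10.9, 12.1 and 5.85 CPM in the KO-labelled libraries; it passed narrowly (adjusted p = 0.0361) and was lost in 5 of the 6 fits without 1 library, all but that without KO_DM replicate 3 (0.0682 to 0.109), without a filter on low counts (0.0619) and by limma-voom (0.181); with the 6 DM libraries alone its adjusted p was 3.02e-06. Saa3, an acute-phase protein, was at 1.38, 0.204 and 0.898 CPM in wild type and 22.7, 17.6 and 18.5 CPM in the KO-labelled libraries and was among the largest rises (4.57 ± 0.40). Lcn2 rose from 0.42 to 3.63 CPM, the complement factor Cfb from 6.36 to 25.6 CPM, and Tlr2, a receptor for bacterial lipoproteins, from 18.1 to 61 CPM.

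The MHC class I pathway was higher for 15 of 18 genes and lower for none (median 1.09). H2-K1, a classical heavy chain, was at 35.3, 37.4 and 32.8 CPM in wild type and 198, 189 and 212 CPM in the KO-labelled libraries, a change of 2.51 ± 0.09 (adjusted p = 4.94e-15). H2-Q4, a non-classical heavy chain, was at 13.7, 14.6 and 14 CPM in wild type and 83.5, 83.1 and 85 CPM in the KO-labelled libraries, a change of 2.57 ± 0.11. The immunoproteasome subunits Psmb8 and Psmb9 rose from 1.86 to 12.3 CPM and from 1.08 to 3.77 CPM, the peptide transporter Tap1 from 8.55 to 25.2 CPM, and Nlrc5, the transactivator of class I genes, from 2.51 to 12.1 CPM (2.27 ± 0.20). Among interferon-inducible GTPases Gbp2 rose from 3.6 to 18.1 CPM, Irgm1 from 20.1 to 39.5 CPM and Iigp1 from 1.17 to 12.2 CPM. At an unadjusted p below 0.05 edgeR had 0 class I members lower, and DESeq2 and limma-voom called 0. Counts within the H2 and Gbp families depend on how shared reads were assigned.

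**Figure D4:**
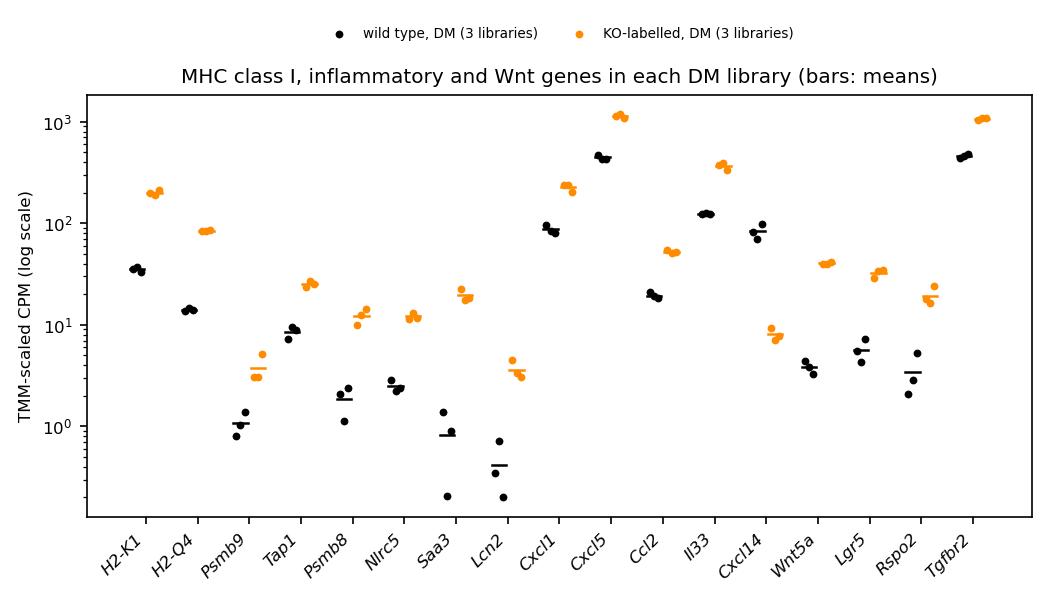
Level of 17 genes of MHC class I, inflammation, and Wnt and TGF-beta signalling in each of the 6 DM libraries, in TMM-scaled CPM on a log axis, with group means as bars. Each gene but Cxcl14 is higher in all 3 KO-labelled libraries than in any wild-type library.

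Markers of other cells were examined as whole lists. Of 10 markers of macrophages and leukocytes 6 had 0 counts in all 6 libraries (among them Ptprc, Adgre1, Cd3e and Tyrobp). The summed level of the list was 16.2 to 20.9 CPM in KO-labelled and 12 to 14.2 in wild-type libraries. Csf1r made up most of the wild-type sum, at 9.52 CPM in wild type and 8.15 CPM in KO-labelled libraries, and was not called. Lyz2, also expressed outside leukocytes, rose from 1.94 to 8.32 CPM. Of 10 endothelial markers 3 were at 0 (Emcn, Erg and Cldn5), with sums of 2.42 to 3.55 and 1.73 to 2.99 CPM. Of 10 epithelial markers 6 were at 0 (among them Epcam, Krt5 and Krt18), with sums of 13.8 to 14.7 and 6.68 to 9.71 CPM, the rise being in Krt14 (from 2.73 to 13.8 CPM) while Krt19 fell. Of 10 neural markers Sox10, Rbfox3 and Snap25 were at 0, with sums of 9.20 to 10.3 and 66.6 to 68.0 CPM; among them Tubb3 fell from 49.4 to 5.77 CPM and Map2 from 15.9 to 0.798 CPM, and Syt1 rose from 0.177 to 1.87 CPM. The list of fibroblast and fibro-adipogenic genes, many also expressed by C2C12 cells, summed to 5958 to 6164 and 5803 to 6879 CPM. Most of this was Col3a1, at 5836 CPM in wild type and 5810 CPM in KO-labelled libraries. Of 7 tested members 2 rose and 3 fell. Pdgfra rose from 55 to 77.4 CPM, while Ly6a fell from 242 to 159 CPM. Dcn fell from 36.4 to 5.14 CPM and Smoc2 from 21.9 to 2.97 CPM.

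Metabolic lists had small medians, with more falls than rises. Of 32 genes of glycolysis and hypoxia 19 fell and none rose (median -0.29; 11 fell without KO_DM replicate 3 or WT_DM replicate 3). Gapdh, the glycolytic dehydrogenase, was at 3209, 3213 and 3031 CPM in wild type and 2709, 2487 and 2302 CPM in the KO-labelled libraries and fell by 0.33 ± 0.07. Car9, a carbonic anhydrase induced by hypoxia, fell from 117 to 57.2 CPM, Egln3, an oxygen sensor, from 238 to 141 CPM, and the lactate transporter Slc16a3 from 81.1 to 43.5 CPM. Of 32 genes of sterol and fatty acid synthesis 2 rose and 16 fell (median -0.24; 10 fell without WT_DM replicate 3, and 1 rose without KO_DM replicate 2, WT_DM replicate 1 or WT_DM replicate 2). Dhcr7, of the last steps of cholesterol synthesis, fell from 51.9 to 24.3 CPM.

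Of 35 cytosolic ribosomal protein genes 19 fell and none rose (median -0.24, or -0.16 without WT_DM replicate 1, where 2 rose). The count of falls was 6 without KO_DM replicate 2, 10 without WT_DM replicate 1, and 12 without KO_DM replicate 3 or WT_DM replicate 2. None of the ribosomal or glycolysis genes was higher at an unadjusted p below 0.05 in edgeR, or called higher by DESeq2 or limma-voom, but 1 glycolysis gene was called higher with the 6 DM libraries alone and without both GM replicate 3 libraries. Rps19 fell from 363 to 278 CPM and Rpl3 from 951 to 750.4 CPM. Of 37 nuclear genes of oxidative phosphorylation 9 fell and 1 rose, but the falls were between 1 and 5 without any 1 of the 6 libraries. The rises were 0 without KO_DM replicate 1 or WT_DM replicate 2 and 2 without WT_DM replicate 1. Uqcrc2, a core subunit of complex III, fell from 132 to 108 CPM, and its call held in each of these fits. Among 13 genes of the mitochondrial genome 1 rose and 1 fell; the rise was lost without KO_DM replicate 1 or WT_DM replicate 1, and the fall without each of the 6 libraries in turn and by DESeq2. Of 8 aryl hydrocarbon receptor targets 3 rose (Cyp1b1, Nqo1 and Ahrr), the first from 219 to 326 CPM.

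Lists for other fates and stress had calls in both directions. Of 17 adipogenic and lipid-handling genes 2 rose and 6 fell; Cd36, the fatty acid transporter, had 178 counts over the wild-type libraries and 0 over the KO-labelled ones, at least 65.1-fold lower, and Fabp4 fell from 3.09 to 0.639 CPM. Neither rise held without KO_DM replicate 1, KO_DM replicate 2, WT_DM replicate 2 or WT_DM replicate 3, and 1 was left without WT_DM replicate 1. Of 13 skeletal genes 1 rose (none without WT_DM replicate 1 or WT_DM replicate 2) and 4 fell, Sox9 among them (from 27.7 to 16.2 CPM). Of 26 genes of the ER stress and amino acid response 3 rose and 5 fell (2 or 3 fell without any 1 of 5 libraries, all but KO_DM replicate 1, and 1 rose without WT_DM replicate 1); Herpud1 rose from 216 to 330.2 CPM and Psat1, of serine synthesis, fell from 209.8 to 139 CPM. Of 24 FoxO, atrophy and autophagy genes 6 rose and 5 fell (3 fell without KO_DM replicate 1, KO_DM replicate 2, WT_DM replicate 1 or WT_DM replicate 2, and 3 rose without WT_DM replicate 2); Fbxo32, the ubiquitin ligase atrogin-1, fell from 55.8 to 35.6 CPM and Ctsd rose from 1049.7 to 1362 CPM. Of 7 proliferin, Sprr and Serpinb genes 5 fell and 1 rose (none without WT_DM replicate 2); Sprr1a fell from 9.59 to 0.192 CPM.

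Among the largest rises of genes with at least 10 CPM in KO-labelled cells, Dpyd, which breaks down pyrimidines, was at 0, 0.102 and 0.698 CPM in wild type and 11, 9.71 and 13.5 CPM in the KO-labelled libraries (5.29 ± 0.50). Gpr141, an orphan receptor, was at 0.461, 1.02 and 1.4 CPM in wild type and 21.8, 27.1 and 26.4 CPM in the KO-labelled libraries (4.66 ± 0.27). In both genes wild type was low or near the floor. Others of these were Lrtm1 (from 0.90 to 21.5 CPM), Megf6 (from 5.87 to 86 CPM), Pappa2, a protease of IGF-binding proteins (from 28.6 to 292 CPM), and Clu, the secreted chaperone clusterin (from 2.77 to 21.2 CPM). The largest rises by difference in CPM included matrix genes. Aebp1, a collagen-binding protein, rose from 1102 to 2212 CPM, and Sparc was at 3857, 4130.4 and 5053 CPM in wild type and 7247, 7111 and 6941 CPM in the KO-labelled libraries, a rise of 0.71 ± 0.19 (adjusted p = 0.0213) that was lost without KO_DM replicate 1 (0.0522), WT_DM replicate 1 (0.0676) or WT_DM replicate 2 (0.0653).

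Among the largest falls were genes with few or no counts in KO-labelled cells. Nefl, the light neurofilament, had 936 counts over the wild-type libraries (28.2, 35.9 and 33.9 CPM) and 0 over the KO-labelled ones, at least 341-fold lower. Nefm, the medium neurofilament, was at 15.8, 28.5 and 22 and 0.101, 0.0934 and 0 CPM, and Tspan7, a tetraspanin, at 25.5, 24.3 and 25.9 and 0, 0 and 0.0929 CPM. Of genes with at least 5 CPM in wild type, Dync1i1, Plxdc2 and Add2 were also at 0 in KO-labelled cells, at least 80.2-, 60.6- and 53.7-fold lower. Mgam fell from 40.4 to 0.409 CPM, L1cam, an adhesion molecule, from 10 to 0.129 CPM, and S1pr3, a receptor for sphingosine 1-phosphate, from 17.2 to 0.679 CPM. Actg1 and Tmsb10, abundant genes of the actin cytoskeleton, fell from 2703 to 2045 CPM and from 1415 to 761 CPM. Pgk1-rs7, with 0 counts in the wild-type DM libraries, was at 25.5, 0 and 19.2 CPM in KO-labelled DM libraries and was not called. In GM it was at 31.1, 0 and 31.3 CPM in wild type and 0, 33.3 and 35.6 CPM in KO-labelled libraries, so it also varied within groups.

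The genotype difference in DM was set against that in GM, which was read from other libraries. In GM 2740 genes were called (20.7%), 10% of all genes as higher and 10.6% as lower. Of the 4114 genes called in DM, 1533 were called in the same direction in GM (37.3% of the DM calls and 55.9% of the GM calls), 624 higher and 909 lower. In the other direction were 33 genes higher in DM and lower in GM and 61 lower in DM and higher in GM. The interaction, which tests the difference in DM minus that in GM, was called for 1174 genes (8.86%), 867 of them also called in DM. It was called for 2709 genes when both GM replicate 3 libraries were left out, and for 754 and 693 without KO_DM replicate 1 and WT_DM replicate 2.

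Many muscle genes were lower in both media. In GM, Mef2c was at 5.76, 7.2 and 14.6 CPM in wild type and at 0 in all 3 KO-labelled libraries, so its difference there has no fitted value of use and its interaction is not given. Actc1 gave -3.80 ± 0.49 in GM and -4.02 ± 0.33 in DM, and its interaction was not called (adjusted p = 0.892). The interaction was called for 2 of 21 thick filament and 1 of 19 thin filament genes. Des gave -2.90 ± 0.10 in GM and -2.39 ± 0.10 in DM, and its interaction was 0.52 ± 0.14 (adjusted p = 0.0209). In MHC class I the difference was larger in DM for H2-K1 (1.71 ± 0.09 in GM, interaction 0.80 ± 0.12, adjusted p = 2.33e-04), and 7 of 18 members had a called interaction.

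Other lists differed by medium. In the chemokine list 3 genes were higher and 6 lower in GM, against 16 and 2 in DM, and 11 of 25 had a called interaction; Cxcl5 gave 0.41 ± 0.10 in GM with an interaction of 0.94 ± 0.15. In the S phase list 32 of 40 genes were higher in GM and 4 in DM, and 27 had a called interaction; Mcm5 gave 1.36 ± 0.09 in GM and 0.43 ± 0.09 in DM (interaction -0.93 ± 0.12). Of the glycolysis and hypoxia list 11 were higher and 5 lower in GM, and 17 of 32 had a called interaction; Car9 gave 0.40 ± 0.10 in GM (interaction -1.43 ± 0.14). Dusp10 gave -0.47 ± 0.10 in GM (interaction -0.79 ± 0.14) and Egr3 0.37 ± 0.15 (interaction -2.49 ± 0.21).

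**Figure D5:**
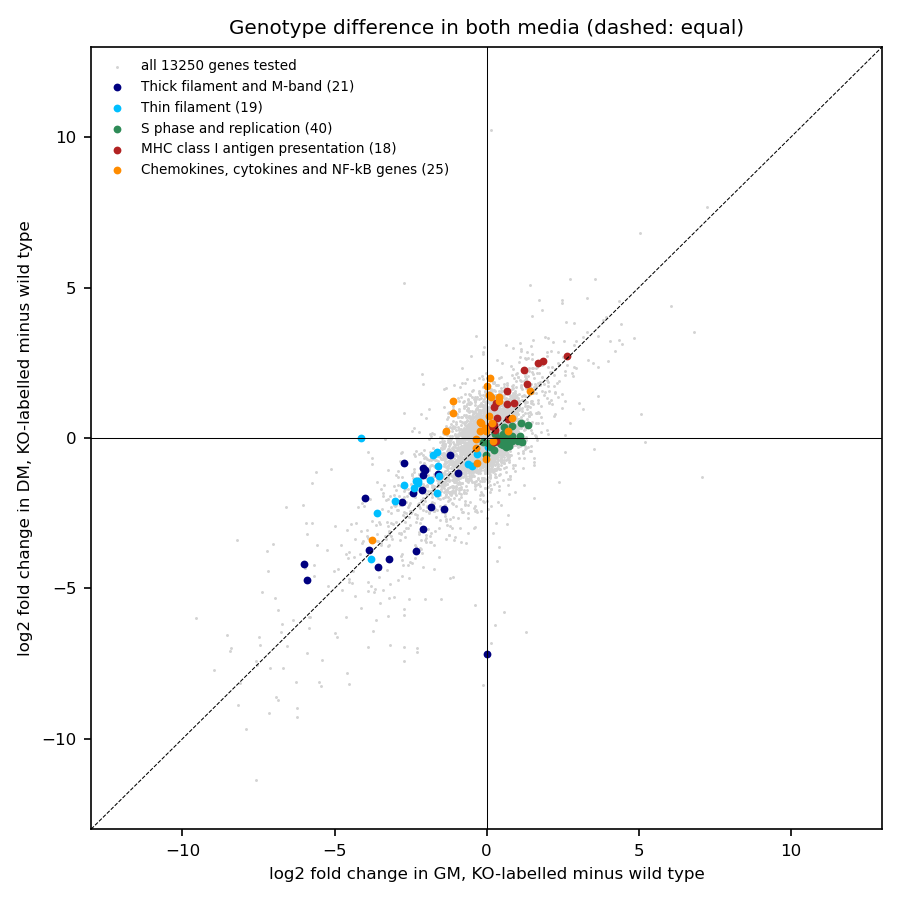
Difference between KO-labelled and wild-type cells in DM against that in GM, 1 point per gene, with 5 lists in colour and a dashed line where both are equal. Most filament genes lie low on both axes and most MHC class I genes above 0 on both, most S phase genes lie to the right near 0 in DM, and most chemokine genes are above 0 in DM.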

How the data were processed

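What the authors deposited is a single table of raw whole-number counts, with no normalization, for 55416 genes in 12 libraries, beside 4 unnamed columns that were not used. The submitters' processing notes name the build GRCm39 and the tools DESeq2 1.40.2, R 4.3.1, RSEM 1.3.3 and STAR 2.7.1a; their roles were not stated, and annotation and strandedness were likewise not given in the sources used here. A GENCODE table gave 52083 of the IDs a symbol.

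One edgeR 4.0.16 model (filterByExpr, TMM, robust quasi-likelihood) with 4 group means was fitted across the 12 libraries, with 2-sided contrasts. Adjusted p is Benjamini-Hochberg over the 13250 genes, and a gene was called below 0.05; only called genes are said to rise or fall. The SE was obtained as the change over the root of F. The floor of 3 counts was 0.279 to 0.346 CPM in a DM library; intervals and floors cover counting error only. The fit was also tried on simulated counts (13018 genes). There 100 genes were changed 2-fold and 100 were changed 4-fold, in KO_DM alone, and all others were equal across the groups. It recovered 82% of 2-fold and 96% of 4-fold changes, and 5.32% of its calls were false. Far more genes were called in the real comparison, so these rates may not carry over to it.

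The members, gene lists and tests were chosen with earlier results of these data known. Named genes were Mapk14, the 15 largest rises and 15 largest falls (at least 10 CPM, no overlap of libraries), the 8 largest each way in CPM, genes at 0 in 1 group and at least 5 CPM in the other, up to 6 called members of each list by size, and a fixed panel; the text names part of them. Marker lists of other cells were examined whole.

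Alternatives were 3 other scalings, DESeq2 and limma-voom, other filters and dispersions, the 6 DM libraries alone, a replicate block, and leaving out each DM library; leaving out both GM replicate 3 libraries was added after seeing the data.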

Additional observations from a re-analysis of the deposited data

Results flagged for a closer look

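For 77 of 204 genes named above, the genotype difference in DM differed from that in GM by edgeR's interaction test (adjusted p below 0.05). The interaction was called for 8.86% of all genes. Many of the genes were named for the size of their difference in DM, which is a term of the interaction. The share of 77 of 204 is therefore not comparable with that of all genes. This choice also favours differences that are larger in DM. The values here are log2 differences, that in DM minus that in GM. These calls were not tried gene by gene under the alternatives, under which the total count moved as given below.

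In 13 genes the level was higher in DM and not called in GM, among them 3 chemokines and the receptors Tlr2 and Fas: 0.37 for Gadd45g, 0.38 for Junb, 0.42 for Herpud1, 0.42 for Pdgfra, 0.59 for Fosl2, 0.91 for Mmp2, 0.95 for Fas, 1.24 for Cxcl1, 1.28 for Elmo1, 1.36 for Ccl2, 1.45 for Tlr2, 1.63 for Synm and 1.87 for Cxcl16. In 14 genes, MHC class I genes among them, it was higher in both media and further so in DM: 0.64 for Aebp1, 0.67 for Fgf10, 0.73 for H2-Q4, 0.80 for H2-K1, 0.89 for Tap1, 0.94 for Cxcl5, 1.05 for Nlrc5, 1.14 for Igfbp3, 1.27 for Lyz2, 1.37 for Gpr141, 1.43 for Gbp2, 1.83 for Clu, 2.14 for Mmp3 and 2.87 for Saa3. The level of Mcm5 was higher in both media and less so in DM (-0.93), that of Id3 was higher in DM and lower in GM (0.97), and Id1 was called in GM alone (0.73).

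In 19 genes the level was lower in DM and not called in GM, with early-response genes and ERK outputs among them: -5.19 for Sprr1a, -2.49 for Egr3, -2.05 for Egr2, -1.18 for Etv4, -1.12 for Dusp6, -1.03 for Dhcr7, -0.92 for Egln3, -0.88 for Dusp4, -0.83 for Hspb1, -0.83 for Id2, -0.76 for Hes1, -0.74 for Tead4, -0.65 for Psat1, -0.60 for Nes, -0.59 for Tmsb10, -0.54 for E2f2, -0.50 for Fbxo32, -0.41 for Gapdh and -0.33 for Rps19. Of the lower genes, Car9 and Egr1 were higher in GM, with -1.43 for Car9 and -1.32 for Egr1. In 15 genes it was lower in both media and further so in DM: -2.21 for Cnn1, -2.10 for S1pr3, -2.01 for Hey1, -1.70 for Casq1, -1.67 for Klf2, -1.61 for Pmaip1, -1.50 for Actg2, -1.42 for Tubb3, -1.27 for Peg10, -0.79 for Dusp10, -0.74 for Tead2, -0.72 for Megf10, -0.72 for Klf4, -0.65 for Ccnd3 and -0.50 for Myl9. In 11 genes it was lower in both and less so in DM: 0.40 for Cdh15, 0.52 for Des, 0.64 for Myod1, 0.77 for Dok7, 0.94 for Chrnd, 0.96 for Tmem182, 1.09 for Erbb3, 1.23 for Igfbp4, 1.23 for Musk, 1.45 for Smyd1 and 3.11 for Dcn.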

How the results depend on the processing

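The counts of genes in DM stayed within 1.5 times those reported under all 17 alternatives, from 1441 to 2431 higher and from 1736 to 2629 lower. The range over the fits without 1 library was 1441 to 1611 higher and 1736 to 1893 lower. A fit of the 6 DM libraries alone gave 4939 calls, of which 4036 were shared with the 4114 of all libraries (98.1% of these). The share of higher genes among those called was 43.8%, and at most 52.0% (total counts alone). The interaction was called for 2709 genes rather than 1174 without both GM replicate 3 libraries, and for 693 to 900 without 1 DM library; the cause was not tested. Of 192 called genes named here, 188 stayed called in every alternative, and no value changed sign with a call. With the 6 DM libraries alone, more members of some lists were higher: 5 rather than 2 myogenic regulators, 4 rather than 2 excitation-contraction coupling genes, 6 rather than 2 p53 targets, 5 rather than 3 aryl hydrocarbon receptor targets and 5 rather than 3 ER stress genes. In that fit 9 rather than 5 ER stress genes were lower.

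Nothing in the labels says that a replicate number marks a shared batch. Over all 18 pairs of same-numbered libraries the correlation of deviations was -0.09 to 0.19 (the highest for replicate 3 of both genotypes in GM), so the numbers were not taken to pair the libraries. In DM it was 0.01, 0.02 and 0.06 for replicates 1, 2 and 3, and WT_DM replicate 1 correlated better with KO_DM replicate 2 (0.02). With the replicate number as a block, 1974 genes were higher and 2520 lower, the interaction was called for 1587, Mapk14 was at -0.03, and the named genes whose call changed were Igf1 (now called, adjusted p = 0.04), Myh1 (now called, 0.0486) and Il6 (lost, 0.0608); the p38 list then had 8 falls. At this depth, a gene at 0 counts may hold up to 3.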

Other observations

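Nefl and Nefm, among the largest falls, are next to each other on chromosome 14 but for 1 predicted gene in RefSeq's table (GRCm38.p6), and Loxl2 lies on the same chromosome with 36 listed genes between it and Nefl. Apart from Nefm, 6 of the genes between them were tested, of which 1 was called higher and 0 lower. This stretch was chosen after its values were seen, and the low levels of these 3 genes were also present in GM, at -7.60 ± 0.35 for Nefl, -4.52 ± 0.41 for Nefm and -7.92 ± 0.27 for Loxl2 (log2). The RefSeq build is not that of the processing notes, so the table was used only for which genes neighbour each other.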
